A study of Mus musculus with 6 samples.

Results

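Iron handling and metalloreductase genes were described in 6 transplanted mouse tumours that model high-grade serous cancer of the ovary. The 10 genes were taken from a list of symbols (Steap4, Steap3, Cybrd1, Tfrc, Trf, Slc11a1, Hmox1, Fth1, Slc40a1 and Cp), and all 10 were among the 16344 genes of the deposited table. Steap4 was selected on its measured difference between these groups: it was already known to be among the few genes higher in the AZD7507 tumours. Its difference is therefore a description here and carries no test. The other genes were listed for their role, at a time when results of these data were known. The groups were 3 tumours from mice given AZD7507, an inhibitor of the macrophage growth factor receptor CSF1R, and 3 from mice given vehicle. In both groups the tumours came from the 60577 murine line, which was placed in the abdomen and grew for 21 days, and both groups followed the same protocol of 3 weekly carboplatin cycles before gavage. Gavage was daily for 84 days. Collection was at the humane endpoint, so its day may differ between tumours. The age, sex and strain of the mice are not given in the sources used here, and the model rests on a single cell line grafted into syngeneic hosts.

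Cells take up iron as ferric iron bound to transferrin, which enters through the transferrin receptor and must be reduced to ferrous iron before it can cross the endosomal membrane. Metalloreductases of the STEAP family and the cytochrome b561 family carry out that reduction. Macrophages also recover iron from the haem of engulfed red cells, through haem oxygenase, and return it to the circulation through ferroportin, while ferritin stores what is not used. Several of the transcripts carry iron-responsive elements, hairpins that iron regulatory proteins bind when iron is scarce, which blocks translation when the hairpin lies before the coding sequence and protects the transcript when it lies after it.

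Iron-responsive hairpins are shown for the listed genes that hold them, because RNA levels read the 2 kinds differently. The search took a C, a stem of 5 paired bases (G-T pairs allowed) and the loop CAGTGN in which the last base was not G, on the sense strand of GENCODE M21 transcripts, and 1.01% of 21877 protein-coding genes held at least 1 match. Of the 10 listed genes, 3 held a match. Capitals mark the loop. The ferroportin gene Slc40a1 had 1 match in its 5′ untranslated region (GRCm38 chr1:45925465-45925492, minus strand) and the ferritin heavy chain gene Fth1 had 1 in the same kind of region (chr19:9982733-9982760, plus strand).
Slc40a1: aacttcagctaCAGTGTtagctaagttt
Fth1: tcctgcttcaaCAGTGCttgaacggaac
The transferrin receptor gene Tfrc had 4 matches in its 3′ untranslated region on the plus strand, at chr16:32631220-32631247, chr16:32631599-32631626, chr16:32631664-32631691 and chr16:32631711-32631738.
Tfrc site 1: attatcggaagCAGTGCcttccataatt
Tfrc site 2: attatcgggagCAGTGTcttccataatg
Tfrc site 3: tatatcggagaCAGTGAtctccatatgt
Tfrc site 4: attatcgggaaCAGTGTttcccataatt

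The 5′ hairpins act on translation, which RNA libraries do not measure, whereas the 3′ hairpins of Tfrc act on the amount of RNA. All values below are log2 RPKM, a read density per gene length and library size on a log2 scale that the authors normalized with cqn, and a difference of 1 unit is a 2-fold change. Differences are AZD7507 minus vehicle, and ± is the SD over n = 3 tumours in each group. Bulk tumour RNA cannot tell fewer cells of a type from less RNA per cell.

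Of the 9 genes not selected on their difference, 1 was called lower and 0 higher in the AZD7507 tumours. Slc11a1, a metal ion transporter of the phagosome in macrophages, was 3.78-fold lower than with vehicle. Steap4, a metalloreductase, was listed because it stood higher with AZD7507, by 1.77-fold. The other 8 genes, among them ferroportin, haem oxygenase 1, ferritin heavy chain and the transferrin receptor, gave no call, and their groups overlapped. Calls are limma's moderated test over all 16344 genes at a Benjamini-Hochberg adjusted p of 0.05. Across all genes 0.337% of genes were called lower and 0.0184% higher, and 15.4% had groups that did not overlap. Nothing is read from the place of Steap4 among the genes called higher because that chose the gene.

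**Figure D1:**
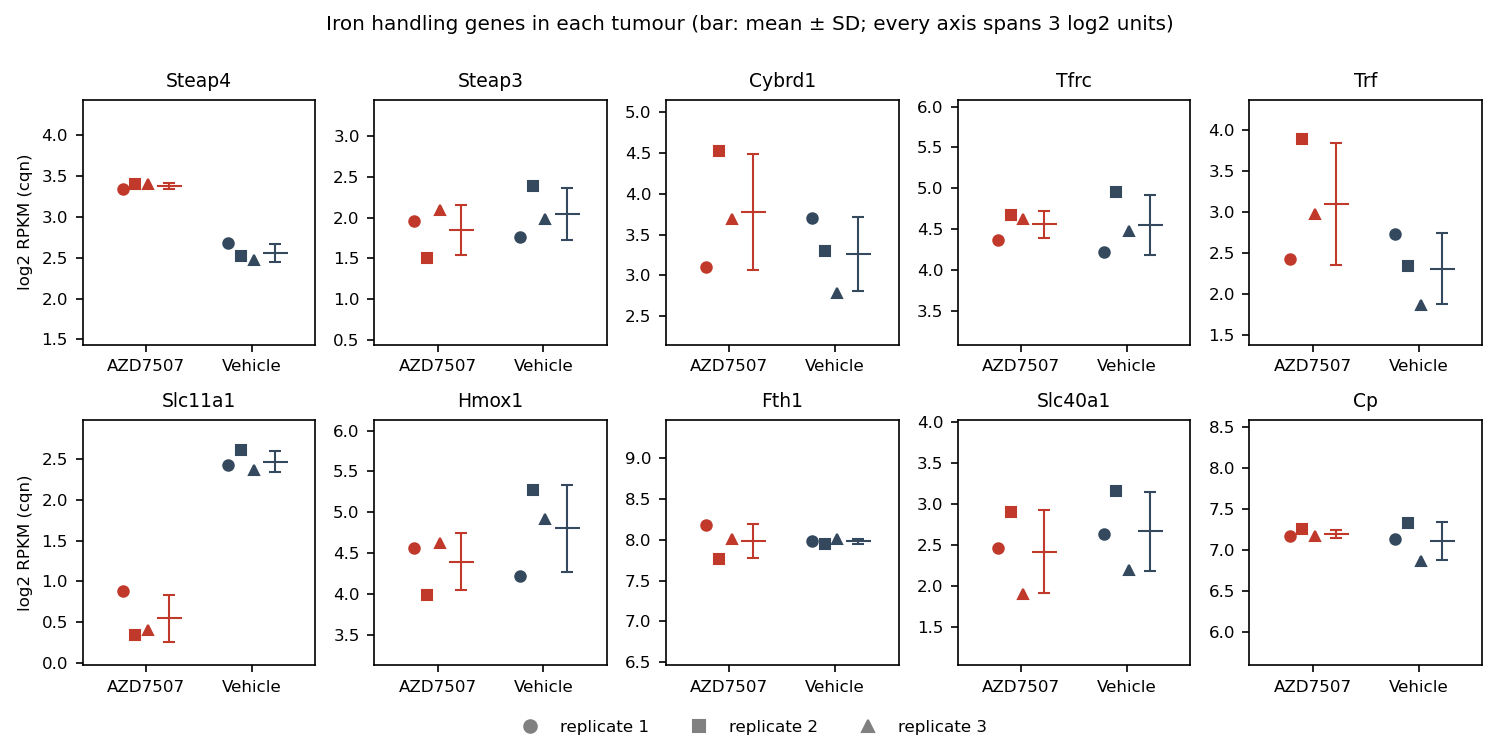
Log2 RPKM of the 10 iron genes in each tumour, with AZD7507 in red to the left of vehicle in dark blue, marker shapes for the replicate number, and the mean ± SD beside the points. Every vertical axis spans 3 log2 units. The groups are apart for Steap4, which was selected on its difference, and for Slc11a1, and overlap for the other 8 genes. Across all genes 15.4% had groups that did not overlap.

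Among the reductases, Steap4 encodes a membrane enzyme that reduces iron and copper and that is known from adipose tissue and inflamed epithelia. It lies on chromosome 5 of GRCm38 (7960457 to 7982213, plus strand). Its values were 3.34, 3.40 and 3.40 in the AZD7507 tumours, against 2.68, 2.52 and 2.47 in the vehicle tumours. Every AZD7507 tumour was above every vehicle tumour, with a gap of 0.66 between the nearest values. Groups did not overlap for 15.4% of all genes. The means were 3.38 ± 0.04 and 2.56 ± 0.11, a difference of 0.82, which lay between 0.78 and 0.88 when any 1 library was left out. Limma called the gene in none of those fits. Steap4 was selected on this difference, so the gap and the range are a description and show no stability.

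The window from 250 bases before to 50 bases after the RefSeq start of Steap4 is shown because its expression differed between the groups (GRCm38.p6 chr5:7960222-7960521, plus strand). Capitals mark 2 motifs, searched on both strands, which do not overlap. The STAT motif TTCNNNGAA began 116 bases and the C/EBP motif TTGCNNAA 87 bases before the start. The STAT letters occur in 8.3% and the C/EBP letters in 10.8% of 32851 such windows of the mouse genome, so a match is a description of sequence and not of binding.
Steap4: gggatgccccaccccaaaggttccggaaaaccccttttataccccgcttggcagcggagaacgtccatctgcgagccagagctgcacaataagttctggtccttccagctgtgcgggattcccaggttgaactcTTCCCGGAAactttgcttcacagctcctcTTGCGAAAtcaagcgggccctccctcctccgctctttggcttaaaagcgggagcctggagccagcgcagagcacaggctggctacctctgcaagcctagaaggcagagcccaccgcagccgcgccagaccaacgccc

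The other metalloreductases gave no call. Steap3, the ferrireductase of the transferrin cycle in red cell precursors, was at 1.96, 1.51 and 2.09 in the AZD7507 tumours, against 1.76, 2.38 and 1.98 in the vehicle tumours. Its groups overlapped, with a difference of -0.19 and a 95% interval of -0.70 to 0.32 (limma adjusted p 0.86). Cybrd1, the duodenal cytochrome b that reduces dietary iron, was at 3.11, 4.52 and 3.69 in the AZD7507 tumours, against 3.70, 3.30 and 2.79 in the vehicle tumours. AZD7507 2 was the highest library for Cybrd1, and the other AZD7507 tumours lay within the vehicle range. Its difference was 0.51 (95% interval -0.36 to 1.38, limma adjusted p 0.78) and depended on single libraries, at 0.14 without AZD7507 2, 0.84 without AZD7507 1 (limma adjusted p 0.64) and 0.73 without Vehicle 1.

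The remaining 7 ferrireductase genes of the STEAP and cytochrome b561 families, listed with results of these data known, all had values and 0 were called by limma in either direction. At an unadjusted p under 0.05 the count was also 0. Steap1 was low, at -0.45 ± 0.38 with AZD7507 and -0.997 ± 0.894 with vehicle, and Steap2 was at 3.94 ± 0.12 with AZD7507 and 3.81 ± 0.40 with vehicle. Steap1 differed by 0.55 and Steap2 by 0.13 with all libraries. Leaving out 1 library gave 0.20 to 1.05 for Steap1 and -0.02 to 0.36 for Steap2, both lowest without Vehicle 3. Without AZD7507 2 and Vehicle 2, the libraries rich in pancreatic transcripts described below, Steap1 differed by 1.26 and Steap2 by 0.42 (unadjusted p 0.0054 and 0.0059, limma adjusted p 0.16 and 0.17), and with array weights by 1.10 and 0.36 (limma adjusted p 0.16 and 0.24). Frrs1, a ferric chelate reductase gene, differed by -0.01, Cyb561 by 0.16, Cyb561d2 by 0.18, Cyb561a3 by 0.09 and Cyb561d1 by -0.22. The median of these 7 differences was 0.13, against 0.03 over all genes. Whether Steap4 differed more than its relatives was not tested.

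**Figure D2:**
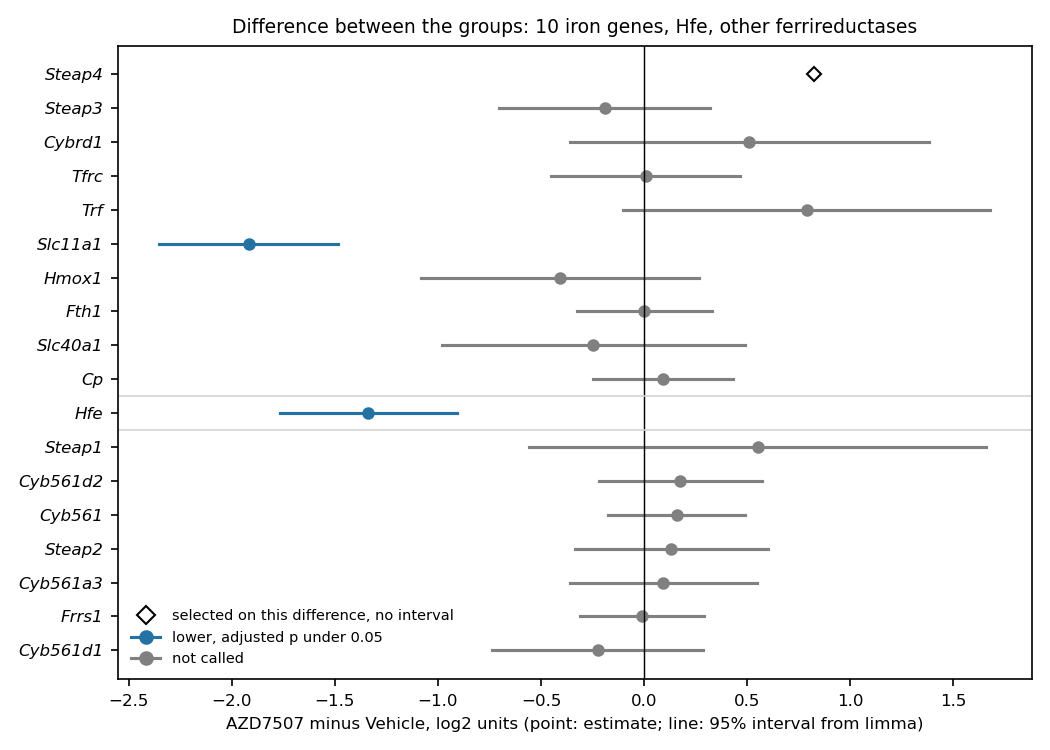
Difference between AZD7507 and vehicle tumours in log2 units, with 95% intervals from limma, for the 10 iron genes, then Hfe, then the other ferrireductase genes. Steap4, selected on this difference, is an open diamond without an interval. Intervals of Slc11a1 and Hfe lie below 0 and every other interval crosses 0.

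For uptake of transferrin iron, Tfrc and Trf gave no call. Tfrc, the transferrin receptor, was at 4.37, 4.68 and 4.62 in the AZD7507 tumours, against 4.22, 4.95 and 4.48 in the vehicle tumours. All AZD7507 values lay within the vehicle range. The difference was 0.01 with a 95% interval of -0.45 to 0.47 (limma adjusted p 0.99), so for the RNA that carries the 4 hairpins after its coding sequence the interval allows a difference of up to 0.47 log2 units. Markers of red cell precursors, which depend on Tfrc, had a mean level between 1.29 and 2.21 in the AZD7507 tumours and between 1.41 and 3.09 in the vehicle tumours over 5 of 8 listed genes with a row, and their part in the Tfrc level was not tested.

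Trf encodes transferrin, the plasma carrier of ferric iron, which liver makes in bulk. It was at 2.42, 3.90 and 2.97 in the AZD7507 tumours, against 2.73, 2.34 and 1.86 in the vehicle tumours. AZD7507 2 was the highest and AZD7507 1 fell within the vehicle range. The difference of 0.79 did not pass (SE 0.38, 95% interval -0.10 to 1.68, limma adjusted p 0.62) and was 0.39 without AZD7507 2 and 1.13 without AZD7507 1 (limma adjusted p 0.48). Of 8 hepatocyte markers only Ahsg had a row in the table, at 2.88, 3.61 and 3.18 in the AZD7507 tumours and 4.25, 3.83 and 3.41 in the vehicle tumours. AZD7507 2 and Vehicle 2 also held transcripts of pancreatic acinar cells, with a mean acinar marker level of 9.23 and 9.10, against -3.31 to -0.04 in the other 4 libraries. The part of that tissue in the Trf and Cybrd1 values was not tested, and without both libraries the differences were 0.41 for Trf and 0.16 for Cybrd1.

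Slc11a1, also called NRAMP1, moves iron and manganese out of the phagosome and is made by macrophages and neutrophils. It lies on chromosome 1 of GRCm38 (74375195 to 74386062, plus strand). It was at 0.88, 0.35 and 0.41 in the AZD7507 tumours, against 2.42, 2.61 and 2.36 in the vehicle tumours. The groups were 1.48 apart at their nearest values, where 15.4% of all genes had groups that did not overlap. Slc11a1 fell to 0.55 ± 0.29 with AZD7507, against 2.46 ± 0.13 with vehicle, a change of -1.92 (SE 0.19, 95% interval -2.35 to -1.48, limma adjusted p 0.021), which is 3.78-fold lower with an interval of 2.79-fold to 5.10-fold. The change stayed between -2.09 and -1.82 when 1 library was left out, but the call held only without AZD7507 1, with adjusted p from limma of 0.024 there and 0.067 to 0.12 in the other 5 fits, and it was lost without both acinar-rich libraries (adjusted p 0.057).

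The same window around the RefSeq start of Slc11a1 is shown because it was the listed gene called lower (GRCm38.p6 chr1:74374953-74375252, plus strand). Capitals mark the letters GAGGAA, the core that the myeloid transcription factor PU.1 binds, which began 152 bases before the start and which 28.3% of all such windows hold on either strand. The window held neither the STAT nor the C/EBP letters, which says nothing about those factors. GAGGAA was absent from the Steap4 window. Cybrd1 and Steap3 also held GAGGAA in a window, and Steap3, Cp and Fth1 held the C/EBP letters, and those genes were not called.
Slc11a1: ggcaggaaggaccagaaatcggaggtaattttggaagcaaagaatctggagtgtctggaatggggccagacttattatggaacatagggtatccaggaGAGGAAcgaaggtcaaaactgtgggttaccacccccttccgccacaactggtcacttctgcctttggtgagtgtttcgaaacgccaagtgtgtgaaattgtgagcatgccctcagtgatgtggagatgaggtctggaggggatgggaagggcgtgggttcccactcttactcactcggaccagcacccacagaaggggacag

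Hmox1, haem oxygenase 1, opens the haem ring and frees its iron. It was at 4.57, 3.99 and 4.63 in the AZD7507 tumours, against 4.22, 5.27 and 4.92 in the vehicle tumours. Vehicle 2 was the highest library and AZD7507 2 the lowest, and the groups overlapped. The difference was -0.41 (95% interval -1.08 to 0.27, limma adjusted p 0.77). It was 0.03 without those 2 libraries, which are also the acinar-rich ones, and -0.70 without Vehicle 1 (unadjusted p 0.021, limma adjusted p 0.54). Vehicle 2 was also the highest library for the mean of osteoclast markers, at 4.10, against 0.89 to 1.65 in the others (4 of 6 listed genes with a row). These markers did not go the same way. Acp5, Ctsk and Mmp9 were each highest in Vehicle 2, but Calcr was at -1.62 there and at -0.004 in AZD7507 2. Vehicle 2 was highest for the macrophage marker mean too, at 4.63. The part of the cells that make these markers in the Hmox1 values was not tested. Fth1, the ferritin heavy chain that oxidises and stores iron, was the highest of the 10 genes, at 8.17, 7.76 and 8.01 in the AZD7507 tumours, against 7.99, 7.95 and 8.01 in the vehicle tumours. Its difference was 0.00 with a 95% interval of -0.33 to 0.33 (limma adjusted p 0.999). The RNA says nothing of ferritin translation, which its 5′ hairpin governs.

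Slc40a1 encodes ferroportin, the only known iron exporter of mammalian cells and abundant on macrophages that recycle red cells. It was at 2.46, 2.90 and 1.90 in the AZD7507 tumours, against 2.64, 3.17 and 2.20 in the vehicle tumours. In both groups replicate 2, the acinar-rich library, was highest and the groups overlapped over most of their range. The difference was -0.25 (SE 0.31, 95% interval -0.98 to 0.49, limma adjusted p 0.88). Cp, ceruloplasmin, the copper oxidase that loads exported iron onto transferrin, was at 7.17, 7.26 and 7.17 in the AZD7507 tumours, against 7.14, 7.33 and 6.86 in the vehicle tumours. Its groups overlapped, with a difference of 0.09 and a 95% interval of -0.25 to 0.43 (limma adjusted p 0.91).

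Because the values are per gene length, the genes can be ordered by level. Fth1 and Cp led in both groups, with ranges apart from each other and from the next gene. In the AZD7507 tumours Tfrc, Hmox1, Cybrd1, Steap4, Trf, Slc40a1 and Steap3 followed with each range overlapping the next, and Slc11a1 stood last, below all of them. In the vehicle tumours Hmox1 and Tfrc came next and overlapped, and below a gap Cybrd1, Slc40a1, Steap4, Slc11a1, Trf and Steap3 formed a run of overlapping neighbours.

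The iron genes linked with macrophages were set beside 12 listed macrophage markers, of which limma called 5 lower and 7 in neither direction, where 0.337% of all genes were called lower. The differences of all 12 were below 0, as were 45.5% of those of all genes, and their median was -2.12. Their mean level was 2.62, 2.42 and 1.77 in the AZD7507 tumours, against 4.03, 4.63 and 4.02 in the vehicle tumours. Slc11a1 lay 1.72 below that mean with AZD7507 and 1.76 below it with vehicle, so it differed by about as much as the marker mean did. Slc40a1 lay 0.15 above the marker mean with AZD7507 and 1.56 below it with vehicle, and Hmox1 lay 2.13 above it with AZD7507 and 0.58 above it with vehicle. The distance to the marker mean did not overlap between the groups for Slc40a1, Hmox1 or any other listed gene except Slc11a1. The marker mean itself did not overlap between the groups, so subtracting it sets apart even genes that hardly differed. Fth1, for example, lay 5.71 above it with AZD7507 and 3.76 above it with vehicle. Nothing is therefore read from these distances. Whether the listed genes differ in their change from the markers was not tested. Neutrophils, the other source of Slc11a1, had 4 of 8 listed markers with a row, at a mean between 0.34 and 0.75 in the AZD7507 tumours and between -0.74 and 1.17 in the vehicle tumours. These markers did not go the same way. S100a8, S100a9 and Cxcr2 had higher means with AZD7507, with overlapping groups. Csf3r was lower, at 0.47 ± 0.16 against 1.15 ± 0.35, without overlap, as for 15.4% of all genes. Of the 4, 0 were called by limma.

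**Figure D3:**
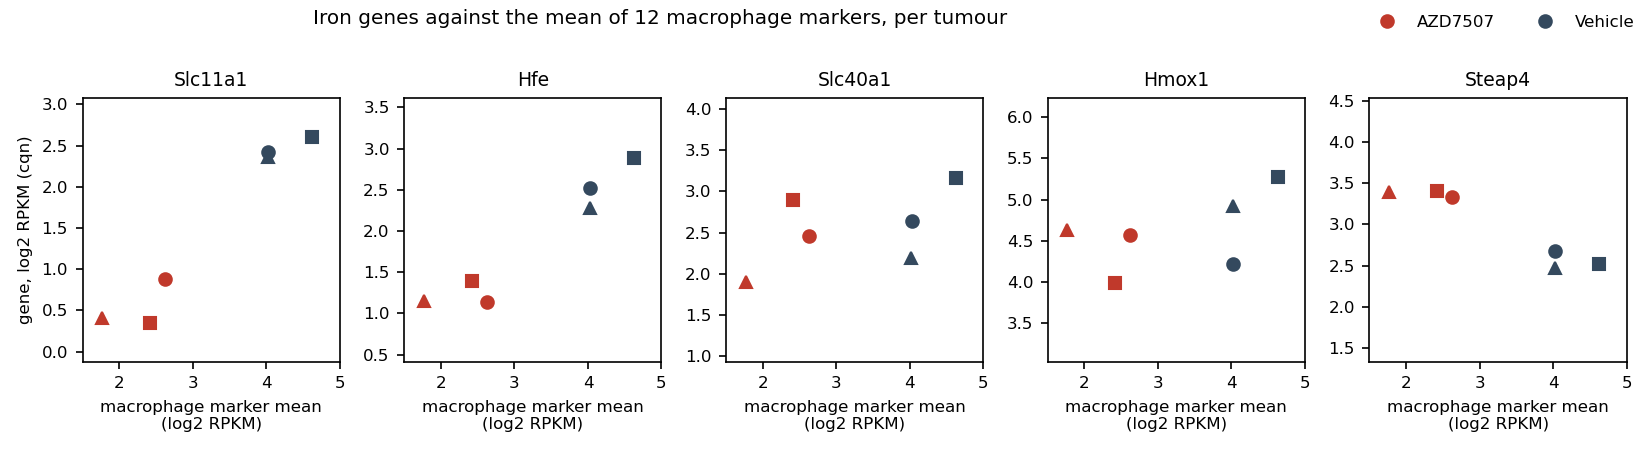
Log2 RPKM of 5 iron genes (vertical) against the mean log2 RPKM of 12 macrophage markers (horizontal) in each tumour, AZD7507 in red and vehicle in dark blue, with marker shapes for the replicate number as circle, square and triangle for 1, 2 and 3. Slc11a1 and Hfe are low in the 3 tumours with a low macrophage mean, which are the AZD7507 tumours. The groups overlap for Slc40a1 and Hmox1. Steap4 is high in the AZD7507 tumours, which is how it was selected, so its panel shows no separate relation to the macrophage mean.

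Beyond the 10 genes, 99 further genes in 10 lists of iron biology, chosen with results of these data known, gave 92 with values. Of these, 1 was called lower and 0 higher by limma over all genes tested, where 0.337% and 0.0184% of all genes were called. The unadjusted p was under 0.05 for 5 with lower and 5 with higher values, against 5.49% and 3.31% of all genes. The median difference was 0.06, against 0.03 over all genes, and 56.5% of the differences were above 0, against 54.5% of all genes.

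The called gene was Hfe, the haemochromatosis protein that binds the transferrin receptor and takes part in sensing iron. It lies on chromosome 13 (23702034 to 23710854, minus strand). It was at 1.14, 1.40 and 1.15 in the AZD7507 tumours, against 2.52, 2.89 and 2.28 in the vehicle tumours. The groups were 0.89 apart at their nearest values. Hfe fell by 1.34 (SE 0.18), which was 2.53-fold lower, with a limma adjusted p of 0.044. Leaving out any 1 library gave -1.48 to -1.18 with adjusted p of 0.084 to 0.19, so the call was lost each time, and it was also lost with a constant variance prior (0.062) and without both acinar-rich libraries (0.059). The other 8 measured genes of the iron sensing and hepcidin list gave no call, with Bmp6, a bone morphogenetic protein that induces hepcidin in liver, at a difference of 0.45 and Fbxl5, an iron-sensing ubiquitin ligase subunit, at -0.10.

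In the uptake and transport list, 11 of 12 genes were measured and 0 were called by limma. At an unadjusted p under 0.05, 2 were higher and 3 lower, against 3.31% and 5.49% of all genes. The groups did not overlap for 5 of the 11, against 15.4% of all genes. Tcirg1, a subunit of the proton pump that acidifies endosomes and lysosomes, was at 4.34 ± 0.03 with AZD7507 and 4.76 ± 0.05 with vehicle, a difference of -0.41 with limma adjusted p 0.18. Lrp1, a receptor that clears haem bound to haemopexin, differed by -0.50, and Slc39a8, a zinc and iron importer, by 0.83 (limma adjusted p 0.45 and 0.43). In the storage and chaperone list 0 of 6 genes were called by limma, and 0 had an unadjusted p under 0.05. The iron chaperone gene Pcbp2 differed by 0.13, Bola2 by 0.19 and Glrx3, which carry iron-sulphur clusters, by -0.19. In the export list 0 of 6 were called by limma and 0 had an unadjusted p under 0.05. The copper importer Slc31a1 was at a difference of 0.26, the copper pump Atp7b at 0.41 and the ferroxidase hephaestin, Heph, at -0.14. Levels were low for Atp7b (-2.70 ± 0.55 with AZD7507, -3.11 ± 0.94 with vehicle) and Heph (-1.41 ± 0.25 and -1.27 ± 0.36).

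Haem genes gave no call. In the clearance list 0 of 12 were called by limma and 0 had an unadjusted p under 0.05. The porphyrin exporter Abcg2 was at 2.21 ± 0.14 with AZD7507 and 1.81 ± 0.32 with vehicle, the haem and folate carrier Slc46a1 differed by 0.31, and the biliverdin reductase Blvrb by -0.24. In the synthesis list 0 of 8 were called by limma, with 1 higher at an unadjusted p under 0.05, against 3.31% of all genes. That gene was Cpox, coproporphyrinogen oxidase, at 4.05 ± 0.16 with AZD7507 and 3.66 ± 0.09 with vehicle, a difference of 0.39 (limma adjusted p 0.35). Alad and Urod, earlier enzymes of the same path, differed by 0.24 and 0.14. In the mitochondrial list 0 of 12 were called by limma and 0 had an unadjusted p under 0.05, with the iron importer Slc25a37 at a difference of -0.44 and the outer membrane iron-sulphur protein gene Cisd1 at 0.22.

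The regulators NRF2 and BACH1, which set transcription of Hmox1, Fth1 and Slc40a1, and their targets gave 0 calls by limma among 11 genes. At an unadjusted p under 0.05, 2 were higher, against 3.31% of all genes. The cystine carrier Slc7a11 was at 1.23 ± 0.75 with AZD7507 and 0.24 ± 0.50 with vehicle, with overlapping groups and a difference of 0.99 (limma adjusted p 0.56). Prdx1, a peroxiredoxin, differed by 0.32 and Gpx4, which reduces lipid peroxides, by -0.32. Among inflammatory and acute phase genes, the setting in which Steap4 and Cp are known to be induced, 0 of 10 measured genes were called by limma. At an unadjusted p under 0.05, 1 was lower, against 5.49% of all genes. The interleukin-6 receptor gene Il6ra was at 0.81 ± 0.36 with AZD7507 and 1.97 ± 0.44 with vehicle, a difference of -1.16 with limma adjusted p 0.20. Il1b and Tnf differed by -0.44 and -0.48.

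**Figure D4:**
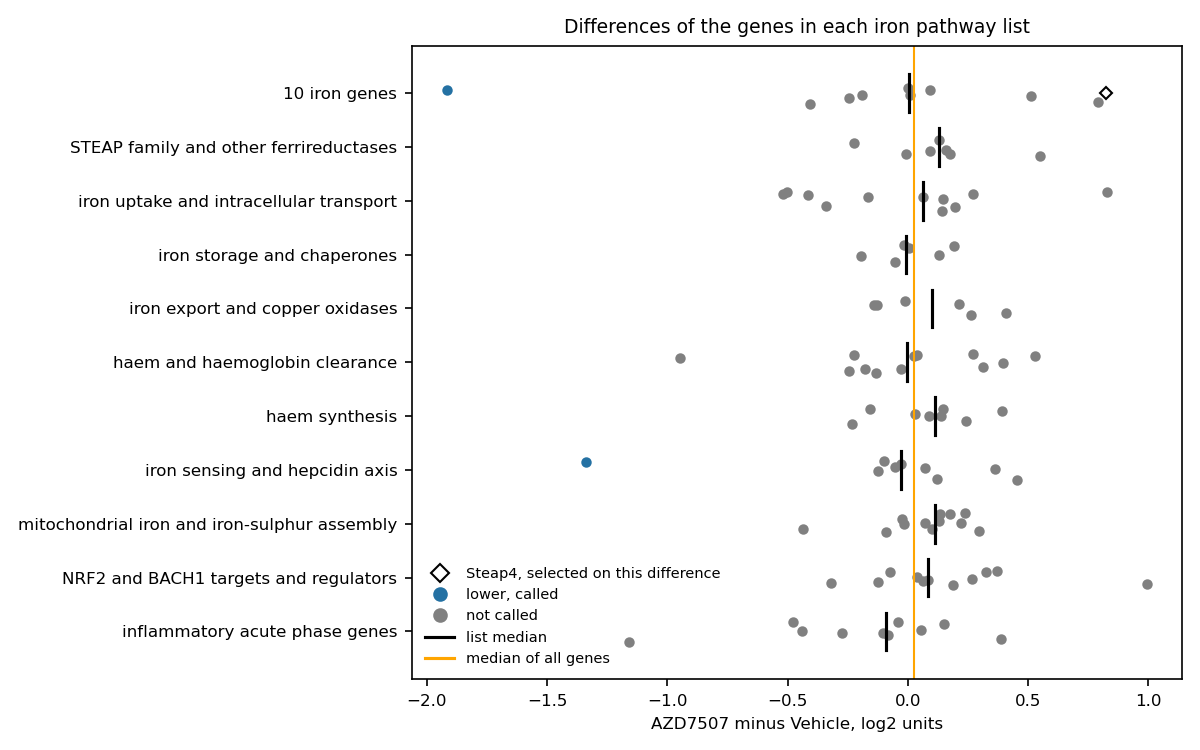
Difference between AZD7507 and vehicle tumours in log2 units for each gene of the 10 iron genes and of the 10 pathway lists. Points are genes (blue called lower, grey not called, open diamond Steap4, which was selected on this difference), black bars are list medians and the orange line is the median of all genes at 0.03. List medians lie between -0.09 and 0.13, with Slc11a1 and Hfe far to the left.

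Among 13376 other genes with a proper symbol, those closest to Steap4 in their centred log2 values over the 6 libraries were Fam84a, Kcnq5 and Ccdc65. Their root mean square differences from Steap4 were 0.10, 0.11 and 0.12, where Steap4 itself varied by 0.42 about its mean. Fam84a differed by 0.85 between the groups, the potassium channel gene Kcnq5 by 0.74 and Ccdc65, a gene of cilia, by 0.87, and these values chose them, so they carry no test. Ccdc65 was at a low level, with a mean of -1.08 with AZD7507 and -1.95 with vehicle. The genes closest to Slc40a1 were the growth factor receptor gene Fgfr3, Garem2 and Cd248, a surface protein of stromal cells, with root mean square differences of 0.12, 0.12 and 0.13. Their profile, with the highest value of each group in replicate 2, was fixed by how they were chosen. Cd248 stood at 3.26 in AZD7507 2 and 3.33 in Vehicle 2, and at 2.43 to 2.79 in the other 4 libraries. Garem2 was at a low level, with a mean of -2.53 with AZD7507 and -2.31 with vehicle.

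Across the table, values below 0 lie under 1 RPKM. Of 9 measured epithelial and tumour markers, the levels ran from low to high. Krt19 and Wt1, which the mesothelial list also holds, were high, with Krt19 between 7.66 and 8.08 in the AZD7507 tumours and between 7.17 and 7.95 in the vehicle tumours, and Wt1 between 6.36 and 6.72 with AZD7507 and between 6.13 and 6.65 with vehicle. Pax8, a marker of serous tumours, lay between -3.79 and -2.52 with AZD7507 and between -3.89 and -2.09 with vehicle, while the mesothelial gene Upk3b lay between 8.07 and 8.63 with AZD7507 and between 7.51 and 8.19 with vehicle. Cldn3, a tight junction gene of epithelia, was at 1.21, 2.49 and 0.93 with AZD7507, against -0.83, 2.16 and -0.26 with vehicle. Krt18 (7.43 ± 0.05 with AZD7507, 7.02 ± 0.19 with vehicle) and Krt8 (4.83 ± 0.09 and 4.44 ± 0.22) had groups that did not overlap, as did 15.4% of all genes. The groups overlapped for the other epithelial and tumour markers. Of the 9 markers 0 had a difference below 0, against 45.5% of all genes, and 0 were called by limma. Their mean level was between 4.26 and 4.32 with AZD7507 and between 3.82 and 4.12 with vehicle. The mesothelial list, which shares Krt19, Wt1 and Msln, also had 0 of 7 differences below 0, and the pancreatic acinar list had 0 of 8. Of the adipocyte list 4 of 8 genes had a row, and 1 of these had a difference below 0. The adipocyte mean level was between -1.08 and 0.29 with AZD7507 and between -1.49 and -0.03 with vehicle. The part of the cells of any of these lists in the Steap4 difference was not tested.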

How the data were processed

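Total RNA of 6 tumours was sequenced after ribosomal RNA had been removed, as the labels' protocols state. The deposited values are log2 RPKM that the authors normalized with cqn, going by the table's name. BWA 0.7.15-r1140, HTSeq, mm10 and GRCm38 are named in the submitters' processing notes. The annotation release, strand setting and low-value filter are not given in the sources used here. The upper quartile was 3.52 and the maximum 10.16 in every library, so a global change in RNA cannot be seen, and values at high levels repeat between libraries. No read counts entered the analysis, so depth is unknown and precision comes from the spread between tumours.

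Symbols were matched for 16306 of 16344 identifiers. Tests were run on the unaltered log2 values with limma 3.58.1 in R 4.3.3 (trended robust prior, 2-sided, Benjamini-Hochberg over all genes at 0.05), checked on simulated data. The labels name no animal, batch or pairing, replicates are numbered in record order, and p-values reflect only how these tumours vary, which may be technical. Members and lists were chosen with earlier results of these data known. Named genes were all 10 members, all measured ferrireductases, the 3 smallest unadjusted p and any call per other list, and the 3 closest patterns to Steap4 and Slc40a1. Under the rule, 1 gene is not reported here. Genes outside it were picked with their values in view. The settings tried instead were median centring or quantile normalization, array weights, a constant prior, pseudocounts (1 or 0.1), a filter at a mean log2 RPKM of 0, and leaving out each library or both acinar-rich libraries. Promoter windows are from RefSeq (GRCm38.p6), where 7 of 10 members matched, and hairpins and gene positions from GENCODE M21 (GRCm38).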

Additional observations from a re-analysis of the deposited data

How the results depend on the processing

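No paired analysis was possible because the labels give no replicate numbers shared by the groups. The number of iron genes called higher was 0 with a constant variance prior, 0 without both acinar-rich libraries and 0 in every fit without 1 library, against 1 with all, which was Steap4 and is no test (limma, with 1 to 3 at an unadjusted p under 0.05 in the fits without 1 library). The number called lower was 0 without both acinar-rich libraries and 0 to 1 without 1 library, against 1. Other iron pathway genes called lower were 0 with a constant prior, 0 without both acinar-rich libraries and 0 in every fit without 1 library, against 1 (4 to 6 at an unadjusted p under 0.05 there). Those called higher were 0 in every setting, while the number higher at an unadjusted p under 0.05 was 5 with all libraries, 13 with array weights, 14 without both acinar-rich libraries and 2 to 14 without 1 library, the 14 being without Vehicle 2. Over all genes, 3 higher and 55 lower became 1 higher with a constant prior, 14 and 143 with array weights, 1 and 13 without both acinar-rich libraries, and 0 higher with 0 to 14 lower without 1 library, where 257 to 1082 higher and 606 to 1359 lower had an unadjusted p under 0.05. The cause of these changes was not tested, beyond the fewer libraries in the fits that leave some out.

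Signs turned for some genes that were not called, Hmox1 (-0.41 with all libraries) among them. With array weights Steap3 was at 7.8e-05 and Frrs1 at 0.0903. Without both acinar-rich libraries Hmox1 was at 0.0294, Steap3 at 0.15, Cyb561d1 at 0.0526, Frrs1 at 0.14 and Heph at 0.13. Leaving out 1 library gave ranges that crossed 0 for Cp (-0.0335 to 0.20), Fth1 (-0.0950 to 0.11), Slc40a1 (-0.49 to 0.0150), Tfrc (-0.16 to 0.21), Steap2 (-0.0162 to 0.36), Cyb561a3 (-0.0394 to 0.27), Cyb561d1 (-0.40 to 0.00526), Frrs1 (-0.0644 to 0.10) and Heph (-0.34 to 0.000726). Slc11a1, Steap4 and Hfe kept their sign in all 14 alternatives. Steap4 was selected on this difference, and Slc11a1 and Hfe are singled out by their call in these same libraries. Their kept signs are therefore a description and no test. Depth is unknown, so it cannot be said which of the low values rest on few reads.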

Other observations

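Some genes of iron and haem biology, chosen after their values were seen, varied more within the groups than between them and were highest in the acinar-rich library of each group. Hp, which encodes the haemoglobin-binding plasma protein haptoglobin, was at 5.52, 6.79 and 4.64 in the AZD7507 tumours, against 4.56, 6.73 and 4.07 in the vehicle tumours. Bmp2, a bone morphogenetic protein gene, was at 3.66, 5.24 and 2.48 in the AZD7507 tumours, against 2.59, 5.74 and 1.96 in the vehicle tumours. Scara5, a receptor for ferritin, was at 1.25, 2.36 and 0.23 in the AZD7507 tumours, against 1.70, 2.90 and 0.79 in the vehicle tumours. Cd163, the macrophage receptor for haemoglobin bound to haptoglobin, was at -2.08, -0.16 and -3.85 in the AZD7507 tumours, against -1.64, 1.29 and -2.90 in the vehicle tumours. For all 4 genes the library numbered 2 was the highest and the library numbered 3 the lowest of each group, as for the acinar marker mean, and the numbers stand for no shared origin in the labels. The part of the acinar tissue in these values was not tested.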
